A study of Homo sapiens with 6 samples.

Results

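The genes of coated-vesicle transport between the endoplasmic reticulum (ER) and the Golgi were examined in Hep-G2 cells with and without knockdown of CLGN. The members were 38 genes taken by name from a deposited table of 58735 genes, and their RNA levels were compared between 3 sh-CLGN and 3 sh-NC libraries. Hep-G2 is an established human liver cancer line. The sh-CLGN cells, which the labels give as a CLGN knock down genotype, carried a lentiviral short hairpin against CLGN (calmegin, an ER chaperone), and the sh-NC cells, given as wild type, carried a lentiviral control hairpin. Both groups were selected with puromycin per the study's methods, and each group rests on a single hairpin. Nothing in the labels says that the libraries of a group came from separate cultures, so p-values measure only the spread between these samples, which may be technical.

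COPII and COPI are the protein coats that bud vesicles between these compartments. COPII forms at ER exit sites: the GTPase SAR1 recruits the SEC23/SEC24 inner coat, whose SEC24 isoforms bind cargo, and SEC13/SEC31 build the outer cage. COPI (coatomer) is recruited by ARF GTPases and returns escaped ER residents, which KDEL receptors capture through their retrieval signal, while p24 proteins and lectin-like receptors load particular cargo and tethers catch the arriving vesicle. Hepatocytes rely on this route to release plasma proteins.

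The targeted gene was examined first. CLGN stood at 24.1, 21.0 and 26.1 FPKM (fragments per kilobase, relative to library size, a level corrected for gene length) in the sh-NC libraries and at 9.48, 8.88 and 8.60 FPKM in the sh-CLGN libraries. Its log2 fold change was -1.31 ± 0.08 (standard error, n = 3 and 3, limma adjusted p = 8.3e-06), and the groups did not overlap. All fold changes are sh-CLGN over sh-NC on the log2(FPKM + 1) scale unless stated, with Benjamini-Hochberg adjustment over all 13074 genes tested.

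The libraries held between 14955816 and 16244639 reads assigned to genes. Correlations were 0.988 to 0.992 within groups and 0.937 to 0.945 between them. The members took 0.832% to 0.845% of the reads in the sh-NC libraries, and in the sh-CLGN libraries 0.839% to 0.848%. The 10 hepatocyte markers were all detected, with a summed level of 7411 to 7622 FPKM in sh-NC and 7621 to 8096 FPKM in sh-CLGN. Among them 4 were higher and 5 were lower, with log2 fold changes of -0.90 for ALB (albumin), -1.62 for TF (transferrin), 0.50 for AFP and 0.72 for FGB. Of 10 fibroblast markers, 5 were tested and all 5 were higher, with a summed level of 7.19 to 8.61 FPKM in sh-NC and 48.6 to 50.01 FPKM in sh-CLGN. COL1A2 carried most of that sum, and DCN, THY1 and FAP were at or near 0 in every library. COL1A1, COL3A1 and LUM reached the 1 FPKM needed for testing only in the sh-CLGN libraries. They could be tested only because they were high there, so their direction was fixed by the filter. Among all tested genes 26.7% were higher and 39.0% were lower. Endothelial markers summed to 3.36 to 3.67 FPKM in sh-NC and 2.38 to 2.65 FPKM in sh-CLGN. The part of these genes in the results below was not tested, and in bulk RNA fewer cells of a type and less RNA per cell cannot be told apart.

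All 38 members passed the filter on low levels. At an adjusted p of at most 0.05, 8 members (21.1%) were higher in sh-CLGN, where 26.7% of all tested genes were higher. On the other side 19 members (50%) were lower, where 39.0% of all tested genes were lower. The remaining 11 members were not called. The 3 sh-NC and 3 sh-CLGN libraries did not overlap for 31 of the 38 members, against 70.2% of all tested genes. The members are abundant, with a median of 41.2 FPKM in sh-NC, and among the 7278 tested genes with a mean of at least 5 FPKM 20.1% were higher and 51.9% were lower, close to the members' shares. The median log2 fold change was -0.12 over the members, -0.08 over all tested genes and -0.21 over the genes of at least 5 FPKM.

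This balance depended on how the libraries were scaled. The counts turned to 12 higher and 12 lower after rescaling to TPM (the same length-corrected levels brought to an equal sum in each library), to 17 and 7 after scaling by read totals and to 20 and 7 after quantile normalization. All tested genes moved too, to 32.8% higher and 30.01% lower in TPM, 37.9% and 26.2% with read totals and 30.2% and 32.5% after quantile normalization. Rescaling to TPM moved the median of all tested genes by 0.11 on the log2 scale and read totals moved it by 0.16. Relative to that median, the members' median stood at -0.04 as deposited, -0.02 in TPM, -0.01 with read totals and 0.17 after quantile normalization. The library sizes that the deposited FPKM imply were 0.933 to 0.953 of the reads assigned to genes in sh-NC and 1.07 to 1.08 of them in sh-CLGN. Small changes of single members are therefore given below with the scaling under which they turned.

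A set of 7 of the 38 members passed the adjusted p and changed by 0.5 or more on the log2 scale, where 31.1% of all tested genes did. KDELR2, ARF5, TMED10, LMAN2 and SEC31A fell, and COPB1 and USO1 rose. These 7 kept their direction and their call under each of the 19 alternatives, the scalings included. Some of these, such as median-ratio scaling and a block for replicate number, left the fold changes as they were or nearly so. In those the direction could not change. KDELR2 was the only member past an absolute log2 fold change of 1, a size of fall that 3.19% of all tested genes reached.

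**Figure D1:**
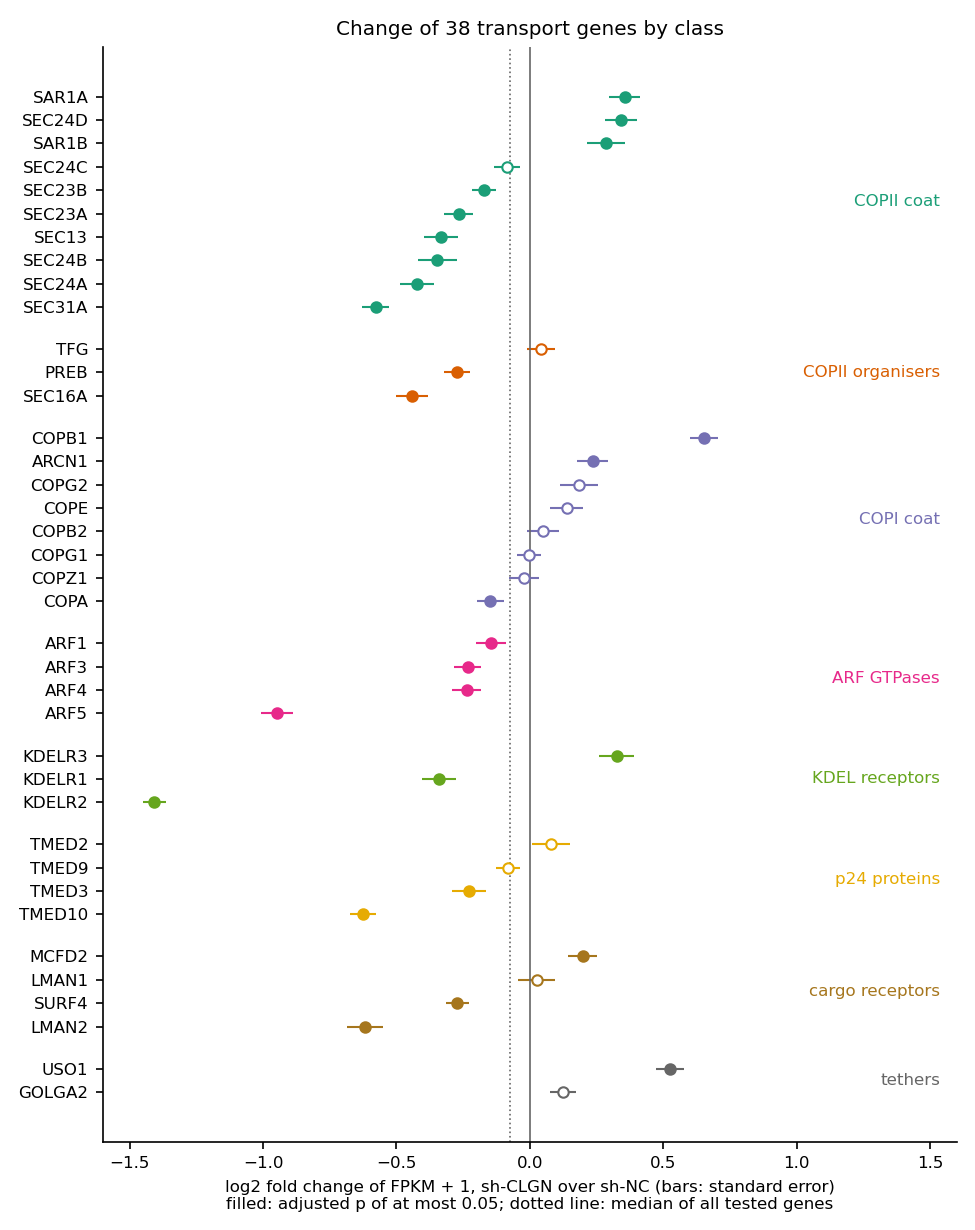
Log2 fold change of FPKM + 1 (x axis, sh-CLGN over sh-NC, bars show the standard error, 3 libraries per group) for the 38 members, grouped and coloured by class. Filled points passed an adjusted p of at most 0.05 and the dotted line marks the median of all tested genes at -0.08; KDELR2 lies farthest to the left at -1.41 and COPB1 farthest to the right at 0.65. Points between about -0.3 and 0 as deposited include those that turn to positive values under quantile normalization or read totals.

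**Figure D2:**
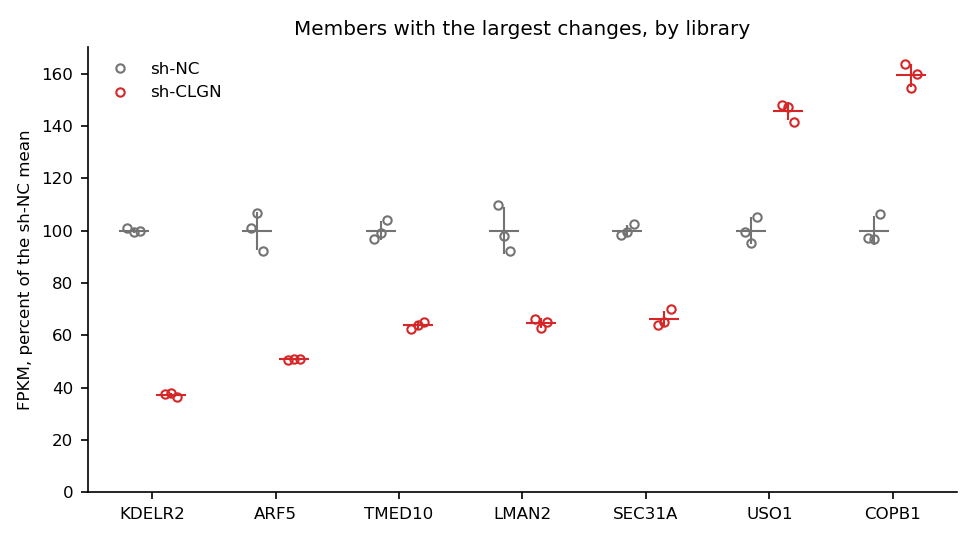
FPKM of the 7 members with the largest changes in each library, as a percent of that gene's sh-NC mean (circles are libraries, bars the mean ± SD, n = 3). KDELR2 sits at 37.3% and ARF5 at 50.8% of the sh-NC mean in sh-CLGN, and COPB1 at 159%, with no overlap between the groups for any of the 7.

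Promoter windows were searched first for short motifs known from stress responses of the secretory pathway, because several members are textbook targets of these responses. RefSeq windows (GRCh38.p14), running from 250 bases before to 50 bases after a transcript start, were matched by symbol for 33 of the 38 members, and none was matched for TMED9, ARF4, KDELR2, SEC24D and USO1. The core of the unfolded protein response element, TGACGTGG on either strand, was present in 8 of the 33 (24.2%) and in 0.927% of all 27305 genes with a window. The Golgi stress element, ACGTGGC on either strand, was present in 16 of the 33 (48.5%) and in 3.95% of all genes. Among tested genes with a window these shares were 1.21% and 5.74%. The letters of both motifs overlap, so that TGACGTGG followed by C counts for each, and 6 members held both. The longer ER stress response element (CCAAT, any 9 bases, CCACG) was in 0 of the 33 windows and in 0.0916% of all genes, and CCAAT alone was in 39.4% of the members and 39.7% of all genes.

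The 8 members with the unfolded protein response core are shown with the motif in capitals, each as a 30-base piece read 5′ to 3′ along the gene, so that CCACGTCA is the same motif on the other strand. COPB2 holds 2 copies.
COPA, chr1:160343227-160343256, minus strand: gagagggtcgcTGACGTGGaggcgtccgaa
ARF1, chr1:228082681-228082710, plus strand: cccggaggcgcTGACGTGGccgccgtcaga
COPB2, chr3:139389632-139389661, minus strand: tcccggaagttCCACGTCAgtcagtctgac
COPB2, chr3:139389825-139389854, minus strand: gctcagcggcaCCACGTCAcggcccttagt
SEC24A, chr5:134648595-134648624, plus strand: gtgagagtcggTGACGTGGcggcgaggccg
SEC16A, chr9:136484707-136484736, minus strand: tggccctggtgCCACGTCAgccggactgaa
COPB1, chr11:14499841-14499870, minus strand: cccacccccttCCACGTCAgccaaggactc
SEC23A, chr14:39103221-39103250, minus strand: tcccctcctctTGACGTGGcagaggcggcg
KDELR3, chr22:38468039-38468068, plus strand: ggccgccctggCCACGTCAccgcccggcca

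Of these 8 members 2 were higher, COPB1 and KDELR3, 5 were lower and 1 was not called, with log2 fold changes from -0.44 to 0.65 and a median of -0.15. The 16 members with the Golgi stress element held 3 higher and 8 lower members and had a median of -0.12. The 15 members with a window and neither motif held 2 higher and 8 lower members and had a median of -0.17. Higher and lower members thus occurred both with and without the motifs, and a motif is a match of letters, not a measured binding site. Over all tested genes 26.7% were higher and 39.0% were lower, and over those with a mean of at least 5 FPKM 20.1% and 51.9%. The changes of other genes with these motifs were not examined.

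**Figure D3:**
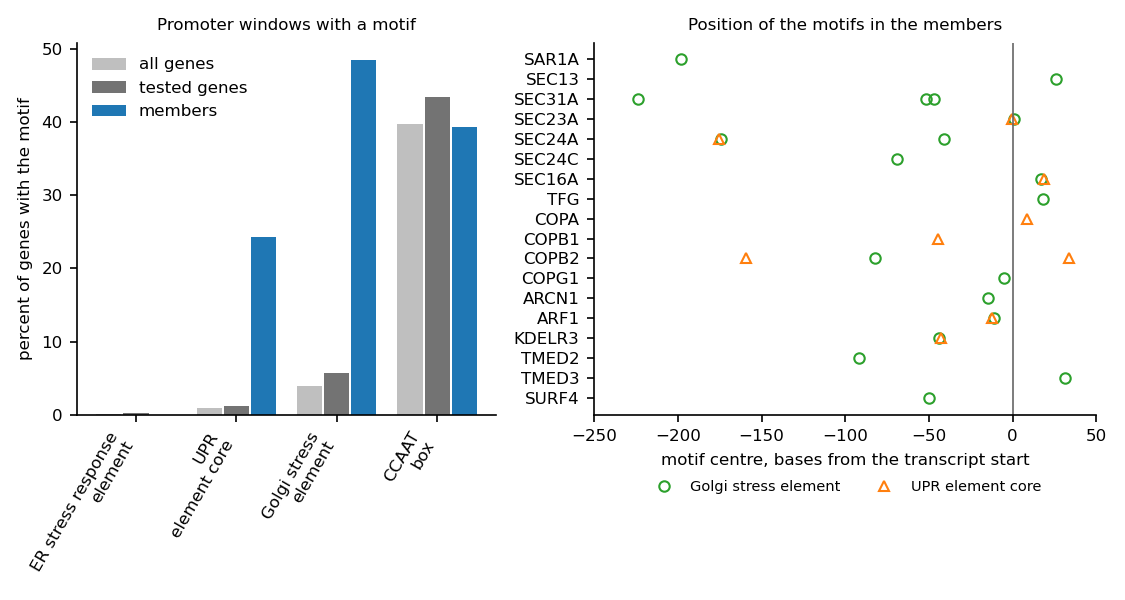
Left, percent of genes whose promoter window holds each motif, for all genes with a window, tested genes and members; the Golgi stress element was in 48.5% of the members and 3.95% of all genes, the unfolded protein response (UPR) core in 24.2% and 0.927%, and the CCAAT box in 39.4% and 39.7%. Right, position of the motif centres from the transcript start in bases for the 18 members with either motif; most lie within 100 bases of the start.

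The COPII coat showed opposite changes in its GTPase and in its cage. SAR1A, the more abundant of the GTPases that start coat assembly, stood at 16.0, 15.9 and 17.8 FPKM in sh-NC and 21.9, 21.6 and 20.8 FPKM in sh-CLGN. Its paralog SAR1B stood at 5.18, 5.31 and 6.04 FPKM in sh-NC and 7.20, 7.02 and 6.54 FPKM in sh-CLGN. Every sh-CLGN library was above every sh-NC library for both genes. The log2 fold changes were 0.36 ± 0.06 for SAR1A (limma adjusted p = 0.00097) and 0.28 ± 0.07 for SAR1B (limma adjusted p = 0.0080). The SAR1B change was 0.03 after removal of the GC trend and was then not called (limma adjusted p = 0.65). SAR1A made up 75.0% ± 0.45 of the SAR1 FPKM in sh-NC (SD, n = 3, as for all shares) and 75.6% ± 0.46 in sh-CLGN, so the difference in balance of the deposited values was close to the spread.

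SEC31A (ENSG00000138674, chr4:82818661-82901166, GRCh38), the outer cage rod, was at 40.9, 41.4 and 42.6 FPKM in sh-NC and 26.6, 27.1 and 29.1 FPKM in sh-CLGN. All sh-CLGN libraries lay below all sh-NC libraries, at 66.3% of the sh-NC mean. Its log2 fold change was -0.58 ± 0.05 (limma adjusted p = 4.0e-05) and ran from -0.61 to -0.30 over the alternatives, the smallest fall under quantile normalization. SEC13, its partner in the cage and also a subunit of the nuclear pore, averaged 56.1 ± 4.57 FPKM in sh-NC and 44.2 ± 0.94 FPKM in sh-CLGN. The log2 fold change of SEC13 was -0.33 and its call was lost with quantile normalization or read totals, where it was -0.05 and -0.14.

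In the inner coat SEC23A, SEC23B, SEC24A and SEC24B were lower and SEC24D was higher in sh-CLGN. SEC23A, the GTPase activator of SAR1, was at 27.1, 26.7 and 29.6 FPKM in sh-NC and 22.6, 22.7 and 23.5 FPKM in sh-CLGN. Its paralog SEC23B was at 51.6, 54.5 and 53.8 FPKM in sh-NC and 46.5, 47.7 and 47.4 FPKM in sh-CLGN. Neither overlapped between groups, with log2 fold changes of -0.27 and -0.17, and the calls were lost in TPM. SEC23A was at -0.00 with quantile normalization and -0.08 with read totals, where SEC23B turned to 0.12 and 0.02. Removal of the GC trend took SEC23A to -0.57 and SEC23B to -0.21. In deposited FPKM, SEC23B held 65.7% ± 1.35 of the SEC23 sum in sh-NC and 67.3% ± 0.41 in sh-CLGN.

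SEC24A, a cargo-binding isoform, was at 10.6, 11.5 and 12.1 FPKM in sh-NC and 7.79, 8.29 and 8.58 FPKM in sh-CLGN. SEC24B, its close paralog, was at 6.88, 6.23 and 7.53 FPKM in sh-NC and 5.39, 5.21 and 4.95 FPKM in sh-CLGN. Both were lower in every sh-CLGN library, with log2 fold changes of -0.42 ± 0.06 (limma adjusted p = 0.00063) and -0.35 ± 0.07 (limma adjusted p = 0.0037), and SEC24B lost its call with read totals (-0.18). SEC24C was at 19.2, 20.7 and 19.9 FPKM in sh-NC and 18.4, 18.6 and 19.2 FPKM in sh-CLGN. Its log2 fold change of -0.09 was not called and turned positive in TPM, quantile and read-total scaling. With quantile normalization SEC24C was called higher (0.14, limma adjusted p = 0.032). SEC24D, the paralog of SEC24C, was at 9.68, 9.54 and 10.5 FPKM in sh-NC and 12.2, 13.3 and 12.9 FPKM in sh-CLGN. It was above sh-NC in every sh-CLGN library, with a log2 fold change of 0.34 ± 0.06 (limma adjusted p = 0.0013).

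Shares within a library do not change when a whole library is multiplied by 1 factor, as in TPM and read totals, whereas quantile normalization and removal of the GC trend can move them. SEC24D supplied 20.6% ± 0.62 of the SEC24 FPKM in sh-NC and 28.5% ± 0.72 in sh-CLGN. SEC24A supplied 23.6% ± 0.67 and 18.3% ± 0.50, and SEC24B 14.3% ± 1.12 and 11.5% ± 0.73. SEC24C held 41.5% ± 1.68 and 41.7% ± 0.63, so the shift lay in the other isoforms. SEC24A and SAR1B lie head to head on chromosome 5 and overlap by 483 bases on opposite strands. They moved in opposite directions, and a use of strand in the authors' counting is not given in the sources used here.

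Among the organisers of ER exit sites, SEC16A, the scaffold, averaged 42.0 ± 2.55 FPKM in sh-NC and 30.6 ± 1.51 FPKM in sh-CLGN, a log2 fold change of -0.44 (limma adjusted p = 0.00038). PREB, the exchange factor that loads SAR1 with GTP, averaged 34.3 ± 1.41 and 28.2 ± 0.42 FPKM, a log2 fold change of -0.27 (limma adjusted p = 0.0015). TFG, which organises the exit-site interface, averaged 54.4 ± 2.23 and 55.9 ± 2.25 FPKM with overlapping libraries. SEC16A lost its call with quantile normalization (-0.16), and PREB with quantile normalization (-0.01) and read totals (-0.08). TFG was not called as deposited, was higher in TPM, quantile and read-total scaling and was lower at -0.28 after removal of the GC trend.

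In the COPI coat COPB1 stood apart from the other subunits of the same complex. COPB1 (beta-COP, ENSG00000129083, chr11:14443440-14500027) was at 24.7, 24.6 and 27.1 FPKM in sh-NC and 41.7, 39.4 and 40.7 FPKM in sh-CLGN. The lowest sh-CLGN library lay well above the highest sh-NC library. The log2 fold change was 0.65 ± 0.05 (limma adjusted p = 3.0e-05), with a range of 0.45 to 0.91 over the alternatives. ARCN1 (delta-COP) was the other subunit called higher, from 52.3 ± 3.36 to 61.6 ± 1.997 FPKM with a log2 fold change of 0.23, and its call was lost after removal of the GC trend (0.12, limma adjusted p = 0.078). COPA (alpha-COP) was called lower at -0.15 (limma adjusted p = 0.030), a call lost without sh-NC replicate 2, sh-CLGN replicate 1 or sh-CLGN replicate 2 (limma adjusted p from 0.079 to 0.12) and turned to 0.13 by quantile normalization and 0.04 by read totals.

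The other 5 coatomer subunits were not called as deposited. COPG1 (gamma-COP) was at 85.5, 90.3 and 86.4 FPKM in sh-NC and 86.0, 88.7 and 86.8 FPKM in sh-CLGN. Its paralog COPG2 was at 7.58, 8.92 and 7.82 FPKM in sh-NC and 9.47, 9.73 and 8.80 FPKM in sh-CLGN. The groups overlapped for both genes, although the lowest sh-CLGN value of COPG2 was below only 1 sh-NC library. The COPG2 log2 fold change of 0.18 was near the threshold (limma adjusted p = 0.052) and was called without sh-NC replicate 2 (0.25) or sh-CLGN replicate 3 (0.22). It was also higher in TPM (0.32), after quantile normalization (0.31) and with read totals (0.36), and was 0.098 after removal of the GC trend. COPG2 overlaps MEST by 228 bases on the opposite strand, and MEST fell by 1.09 on the log2 scale with reads equal to 78.6% of those of COPG2. COPB2, COPE and COPZ1 had log2 fold changes of 0.05, 0.14 and -0.02. COPG1, at -0.004, and COPZ1 were called higher with quantile normalization, at 0.29 and 0.26 (limma adjusted p = 0.0011 and 0.0028). With read totals they were also called higher, at 0.19 and 0.17 (limma adjusted p = 0.0065 and 0.026). COPE was higher with TPM, quantile, read-total and GC-corrected values, and COPB2 was higher with quantile and read-total scaling but lower at -0.26 after removal of the GC trend.

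All 4 ARF GTPases, which recruit coatomer, were called lower as deposited, but only ARF5 stayed lower under every scaling. ARF5 (ENSG00000004059, chr7:127588345-127591705) was at 52.0, 54.9 and 47.5 FPKM in sh-NC and 26.1, 26.2 and 26.2 FPKM in sh-CLGN. The sh-CLGN libraries were nearly equal and far below sh-NC, at 50.8% of its mean. Its log2 fold change was -0.95 ± 0.06 (limma adjusted p = 8.6e-06) and ran from -1.003 to -0.68 over the alternatives. The whole ARF5 gene lies inside the span of GCC1 on the opposite strand, and GCC1 fell by 0.59 on the log2 scale with reads equal to 84.8% of those of ARF5. How far reads of these genes could be assigned to the other was not tested.

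ARF1, the main ARF by level, was at 179, 170.0 and 158 FPKM in sh-NC and 151, 152 and 155 FPKM in sh-CLGN. ARF3 was at 43.0, 39.1 and 40.4 FPKM in sh-NC and 35.1, 33.4 and 35.2 FPKM in sh-CLGN. ARF4 was at 64.4, 65.8 and 68.7 FPKM in sh-NC and 58.8, 56.7 and 52.9 FPKM in sh-CLGN. None of these overlapped between groups, yet the differences were small, with log2 fold changes of -0.14, -0.23 and -0.24. The ARF1 call lay at the threshold (limma adjusted p = 0.0497) and was lost without any 1 of the libraries other than sh-NC replicate 3 (limma adjusted p from 0.083 to 0.14). Under quantile normalization ARF1 turned to 0.17 and was called higher (limma adjusted p = 0.013). ARF3 and ARF4 turned to 0.05 and 0.04 there and were not called. With read totals ARF1 was at 0.05, not called. Removal of the GC trend took ARF4 to -0.43 and ARF1 to -0.02. ARF5 supplied 15.7% ± 0.82 of the ARF FPKM in sh-NC and 9.71% ± 0.08 in sh-CLGN, while ARF1 went from 51.5% ± 1.36 to 56.6% ± 0.93 of that sum.

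The KDEL receptors, which bind ER chaperones in the Golgi and return them in COPI vesicles, included the member with the largest change. KDELR2 (ENSG00000136240, chr7:6445953-6484242) was at 140.0, 138 and 138 FPKM in sh-NC and 52.2, 52.5 and 50.4 FPKM in sh-CLGN. The libraries of each group lay close together, and the sh-CLGN mean was 37.3% of the sh-NC mean. Its log2 fold change was -1.41 ± 0.04 (limma adjusted p = 6.6e-07), with a range of -1.50 to -1.10 over the alternatives and with 3249 to 8550 reads per library. In the order of levels among the 38 members KDELR2 went from rank 4 to rank 12. KDELR2 overlaps DAGLB over 38238 bases on the same strand, but DAGLB held reads equal to only 6.78% of those of KDELR2 and rose by 0.39 on the log2 scale.

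KDELR1 was at 115, 112 and 98.5 FPKM in sh-NC and 85.0, 86.7 and 84.9 FPKM in sh-CLGN. KDELR3 was at 34.8, 34.4 and 31.9 FPKM in sh-NC and 40.5, 46.3 and 40.9 FPKM in sh-CLGN. The groups did not overlap for either gene, KDELR1 being lower and KDELR3 higher in sh-CLGN. The log2 fold changes were -0.34 ± 0.06 for KDELR1 (limma adjusted p = 0.0021) and 0.32 ± 0.07 for KDELR3 (limma adjusted p = 0.0028). KDELR1 lost its call with quantile normalization (-0.04) and read totals (-0.15), whereas KDELR3 stayed higher under all 4 scalings. KDELR2 was the leading receptor in sh-NC with 49.4% ± 1.84 of the summed FPKM and held 28.8% ± 0.56 in sh-CLGN. KDELR1 then led with 47.6% ± 0.74, up from 38.6% ± 1.74, and KDELR3 went from 12.0% ± 0.11 to 23.6% ± 1.15.

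**Figure D4:**
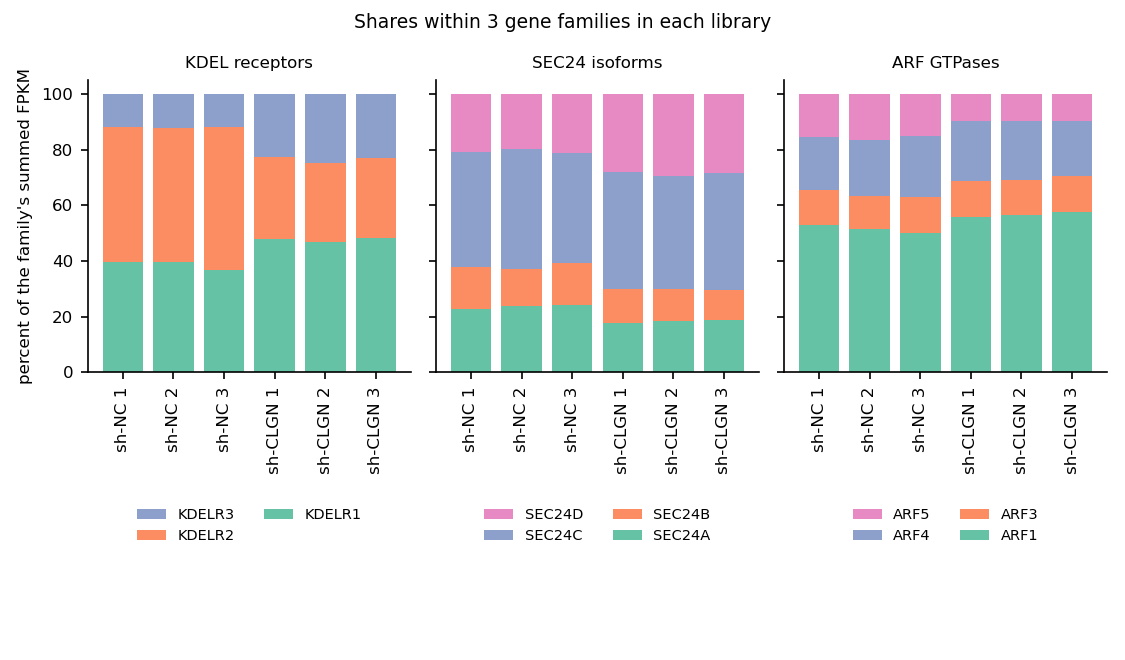
Share of each gene in the summed FPKM of its family (y axis, percent) in the 3 sh-NC and 3 sh-CLGN libraries, for the KDEL receptors, the SEC24 isoforms and the ARF GTPases. KDELR2 falls from 49.4% to 28.8% of its family and ARF5 from 15.7% to 9.71%, and SEC24D rises from 20.6% to 28.5%, with similar bars within each group.

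Of the p24 proteins, TMED10 (ENSG00000170348, chr14:75131470-75176631) was at 35.9, 36.8 and 38.5 FPKM in sh-NC and 23.2, 23.7 and 24.2 FPKM in sh-CLGN. Each sh-CLGN library lay below each sh-NC library, at 63.9% of the sh-NC mean. The log2 fold change was -0.62 ± 0.05 (limma adjusted p = 2.1e-05) and ran from -0.83 to -0.36 over the alternatives. TMED3 was called lower at -0.23, from 7.59 ± 0.44 to 6.34 ± 0.32 FPKM, a call lost without sh-CLGN replicate 2 (limma adjusted p = 0.055) and in TPM, quantile and read-total scaling. TMED9, among the most abundant members at 179 ± 6.29 FPKM, and TMED2, the main partner of TMED10, were not called at -0.08 and 0.08. TMED9 was called lower without sh-NC replicate 3 (-0.11, limma adjusted p = 0.042). With quantile normalization it turned to 0.23 and was called higher (limma adjusted p = 0.0029). TMED2 was called higher with quantile normalization (0.36) and read totals (0.27) and lower after removal of the GC trend (-0.14).

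Among the cargo receptors, LMAN2 (VIP36, a lectin, ENSG00000169223, chr5:177331562-177351852) was at 134, 119.7 and 113 FPKM in sh-NC and 81.2, 76.6 and 79.4 FPKM in sh-CLGN. LMAN1 (ERGIC-53), the mannose lectin that exports clotting factors, was at 26.8, 25.5 and 30.4 FPKM in sh-NC and 26.9, 29.1 and 27.9 FPKM in sh-CLGN. LMAN2 was lower in every sh-CLGN library, and LMAN1 overlapped between groups. The LMAN2 log2 fold change was -0.62 ± 0.07 (limma adjusted p = 0.00012), with a range of -0.67 to -0.32 over the alternatives. For LMAN1 it was 0.03, not called as deposited, higher with quantile and read-total scaling and lower at -0.21 after removal of the GC trend. MCFD2, the cofactor of LMAN1, rose by 0.20 on the log2 scale from 31.6 ± 1.83 to 36.4 ± 0.32 FPKM (limma adjusted p = 0.011). After removal of the GC trend it was at 0.097, and that call was lost when the replicate block was added (limma adjusted p = 0.059). SURF4, the most abundant member and a receptor for lipoproteins and other secreted proteins, went from 264 ± 6.53 to 218 ± 1.69 FPKM, a log2 fold change of -0.27 that was lost with read totals (-0.08) and turned to 0.06 with quantile normalization.

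Both tethers were above sh-NC in all sh-CLGN libraries. USO1 (p115, ENSG00000138768, chr4:75724593-75814286) was at 23.2, 22.2 and 24.6 FPKM in sh-NC and 34.6, 34.3 and 33.1 FPKM in sh-CLGN. The groups were well separated, with a log2 fold change of 0.52 ± 0.05 (limma adjusted p = 7.3e-05) that ran from 0.26 after removal of the GC trend to 0.79 with quantile normalization. GOLGA2 (GM130), its docking partner on the cis-Golgi, went from 16.7 ± 0.63 to 18.2 ± 0.195 FPKM and missed the threshold at 0.12 (limma adjusted p = 0.054), although it was called without sh-NC replicate 3 (0.14) and was higher in TPM (0.25), after quantile normalization (0.34), with read totals (0.31) and after removal of the GC trend (0.24). The 9 pseudogenes named after GOLGA2 held reads equal to 31.0% of its own, so its counts are less certain.

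The ratio of paralogs within a library was compared for 10 pairs, and 6 did not overlap between groups. With 3 against 3 libraries the exact two-sided permutation test cannot go below p = 0.1, which all 6 reached, and 0.167 after adjustment over the 10 pairs. The mean log2 ratio of KDELR3 to KDELR2 went from -2.04 ± 0.06 in sh-NC to -0.28 ± 0.09 in sh-CLGN, a 3.38-fold rise of the ratio. That of KDELR1 to KDELR2 changed sign, from -0.35 ± 0.12 to 0.73 ± 0.02. The remaining separated pairs were ARF4 to ARF5 with a difference of 0.73, LMAN1 to LMAN2 with 0.65, SEC24C to SEC24D with -0.46 and COPG1 to COPG2 with -0.21. Removal of the GC trend reduced ARF4 to ARF5 to 0.40, LMAN1 to LMAN2 to 0.27, SEC24C to SEC24D to -0.30 and COPG1 to COPG2 to -0.02, but enlarged KDELR1 to KDELR2 to 1.28. SAR1A to SAR1B (0.04), SEC23A to SEC23B (-0.10), SEC24A to SEC24B (-0.06) and ARF1 to ARF3 (0.09) overlapped between the groups, with exact permutation p of 0.3, 0.2, 0.6 and 0.2. Removal of the GC trend enlarged each of these differences, to 0.20, -0.38, -0.20 and 0.13.

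Summed by class, without a test, the KDEL receptors went from 281 ± 11.04 FPKM in sh-NC to 179.8 ± 4.97 FPKM in sh-CLGN, a ratio of 0.639. That ratio stayed below 1 in each scaling, at 0.698 in TPM, 0.732 with read totals and 0.789 after quantile normalization. The tethers had a ratio of 1.31 and the COPI coat 1.07, and both stayed above 1 in each scaling. The COPII coat (0.864), the organisers (0.878), the ARF GTPases (0.822), the p24 proteins (0.918) and the cargo receptors (0.812) were below 1 as deposited and above 1 after quantile normalization.

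**Figure D5:**
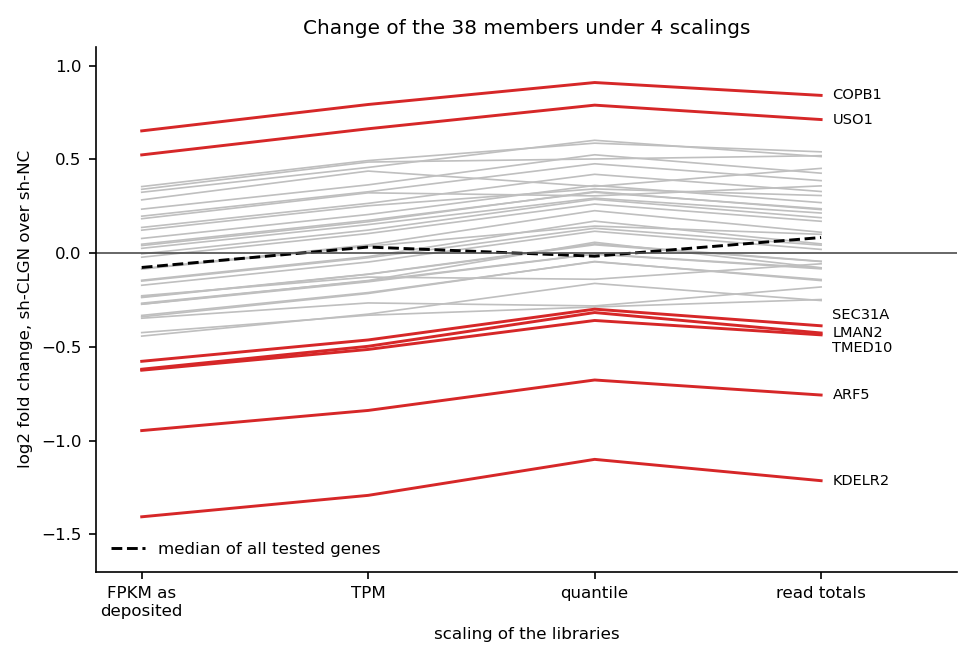
Log2 fold change (y axis, sh-CLGN over sh-NC) of the 38 members under 4 scalings of the libraries (x axis), with the 7 members past an absolute 0.5 as red lines and the median of all tested genes dashed. The red lines stay on their side of 0, KDELR2 between -1.41 and -1.10, while many grey lines cross 0 under quantile normalization and read totals, where the called members turn to 20 higher and 7 lower and to 17 higher and 7 lower.

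Base composition moved with the changes, in members as in other genes. GC content was taken from the longest annotated transcript of each gene, which need not be the one expressed, here and for removal of the GC trend. Spearman's rho between GC content and log2 fold change was -0.32 across the 38 members and -0.32 across 13068 tested genes. It is a description across genes that share the same 6 libraries. The members' median GC content was 45.5%. With the GC trend removed from each library 8 members were higher and 22 were lower, where 25.4% of all tested genes were higher and 43.1% were lower.

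The 3′ untranslated regions were read for 7-base matches to the end of the hairpin target, since a guide RNA can lower transcripts that pair with its seed. The guide's exact start is not given in the sources used here, so the heptamers for guide bases 1 to 7 (ACCACAA), 2 to 8 (TACCACA) and 3 to 9 (ATACCAC) were used. A match in the region of any annotated protein-coding transcript of a gene counted, and which transcripts were expressed was not examined. A match was present in 6 of the 38 members (15.8%) and in 21.5% of the 10877 tested genes with an annotated region. These are the sites (GENCODE 29 transcripts, GRCh38, 5′ to 3′ along the transcript), with the heptamer in capitals. The first 2 of TMED10 overlap, since ATACCACA holds a pair of the heptamers.
KDELR2, chr7:6463069-6463098, minus strand: gacagaattctTACCACAgcaaaggcataa
TMED10, chr14:75133421-75133450, minus strand: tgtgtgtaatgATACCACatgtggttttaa
TMED10, chr14:75133420-75133449, minus strand: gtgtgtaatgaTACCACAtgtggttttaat
TMED10, chr14:75133770-75133799, minus strand: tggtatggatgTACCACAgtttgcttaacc
SEC23A, chr14:39033015-39033044, minus strand: tttattttgctTACCACAgtgttatagctg
SEC24A, chr5:134726912-134726941, plus strand: actcttgttatTACCACAtgcttttttagt
TMED3, chr15:79412460-79412489, plus strand: aacagtggactTACCACAccctgagcagcc
TMED3, chr15:79414420-79414449, plus strand: tgaatgagtaaACCACAAgtacagaaaagt
COPA, chr1:160289635-160289664, minus strand: caactgagatcATACCACttcattccagcc

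All 6 members with a match were called lower, as were 13 of the 32 without one, and their median log2 fold changes were -0.35 and -0.01. Across all tested genes 45.3% of those with a match and 43.0% of those without were lower, with medians of -0.15 and -0.12. KDELR2 holds its match at base 54 of a 2060-base region, and TMED10 is the only member with more than 1 TACCACA site. The TMED3 sites were read from a transcript with a region of 15928 bases. The calls of SEC23A, TMED3 and COPA among these were lost under some scalings, as given above, and pairing of the hairpin with these sites was not tested.

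Other genes of the pathway were examined from a list of 66, of which 63 were tested. Of these, 22 were higher (34.9%) and 23 were lower (36.5%), with a median log2 fold change of 0.00, against 26.7% higher and 39.0% lower among all tested genes. The counts were 26 higher and 19 lower in TPM, 32 and 16 with read totals, 30 and 15 after quantile normalization and 16 and 26 after removal of the GC trend. SEC16B, COPZ2 and TRAPPC5 were below the filter. The largest rises were GOLGB1 (giantin, a Golgi tether) at 1.30, ERGIC2, a protein of the intermediate compartment, at 1.11 and USE1, an ER SNARE, at 1.07. The largest falls were KLHL12, the adaptor of a ubiquitin ligase that acts on SEC31, at -0.75, GOSR2, a Golgi SNARE, at -0.68 and TRAPPC6A, a TRAPP subunit, at -0.65. SNAREs and their regulators had 7 higher and 6 lower of 16, the TRAPP, RAB and Golgi tether genes 6 higher and 8 lower of 21 tested, other cargo adaptors 4 higher and 6 lower of 14, COPI and ARF regulators 3 higher and 2 lower of 7 tested, and COPII regulators 2 higher and 1 lower of 5 tested.

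Regulators of secretory genes were examined as a list of 11, all tested, of which 7 were lower (63.6%) and 2 were higher (18.2%). Among all tested genes 39.0% were lower and 26.7% were higher. The regulators had a median of 39.8 FPKM in sh-NC, and among tested genes of at least 5 FPKM 51.9% were lower and 20.1% were higher. XBP1, the transcription factor of the IRE1 branch, went from 360.0 ± 12.7 FPKM in sh-NC to 207 ± 1.51 FPKM in sh-CLGN, a log2 fold change of -0.79. Its activator ERN1 (IRE1) was at -0.66 and ATF4, the factor of the PERK branch, at -0.57. TFE3, which acts through the Golgi stress element, was at -0.61, CREB3L3 at -0.72 and CREB3L2, which drives COPII genes during heavy secretion, at -0.48. CREB3L4 rose by 0.22 on the log2 scale, and CREB3L1 by 0.75 from a low level of 0.707 ± 0.105 FPKM to 1.88 ± 0.20 FPKM. CREB3L1 was below 1 FPKM in every sh-NC library and passed the filter only through sh-CLGN, where it was high. Its count among the higher regulators is limited by this, and it was not tested when any 1 of the sh-CLGN libraries was left out. HSPA5, the ER chaperone BiP, was called lower at -0.16 and lost that call without sh-NC replicate 2 or any 1 of the sh-CLGN libraries. With quantile normalization HSPA5 turned to 0.18 and was called higher (limma adjusted p = 0.025), and with read totals it turned to 0.03. ATF6 (-0.16) and CREB3 (-0.06) were not called.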

How the data were processed

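RNA of 6 Hep-G2 libraries (3 sh-NC, 3 sh-CLGN) was sequenced, and the authors deposited 1 table of gene-level FPKM. Per the submitters' processing notes reads were aligned with HISAT2 2.0.5 to GRCh38 and counted with featureCounts. The strand setting and the scaling behind the deposited FPKM are not given in the sources used here. The deposited values gave the same median-ratio size factor, 1.008, in all 6 libraries. Gene positions equalled GENCODE 29 for all 58735 genes. The knockdown columns carry short names and were matched to the sh-CLGN samples by genotype and number. FPKM times gene length over the value of 1 read gave whole reads for 100% of values (tolerance 0.01 read), with 14955816 to 16244639 reads per library, and no count model was the main test. The number of libraries and the reads per gene limit the precision.

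The deposited FPKM were taken as log2(FPKM + 1), genes reaching 1 FPKM in 3 or more libraries were kept, and these 13074 were fitted with limma 3.58.1 (eBayes with trend, R 4.3.3), two-sided, with Benjamini-Hochberg adjustment. A call was an adjusted p of at most 0.05. Paralog ratios were compared by exact permutation (scipy 1.17.1). Values in every library are given for members past an absolute log2 fold change of 0.5 and for both genes of each paralog pair. The 3 largest rises and falls of the wider list and the tested regulators are named. Members, lists, motifs and heptamers were chosen with earlier results of these data known, and the level of 5 FPKM was set after values were seen. Alternatives were a pseudocount of 0.1, no filter, protein-coding genes only, TPM, quantile, median-ratio and read-total scaling, voom on the recovered reads, a test against a fold change of 1.2, robust eBayes, GC correction (lowess, span 0.3), a block for replicate number, and omission of single libraries. The scripts were tested on simulated data. Protein sequences were not analysed here. A further marker list is not reported here.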

Additional observations from a re-analysis of the deposited data

How the results depend on the processing

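The 7 members past an absolute log2 fold change of 0.5 and CLGN kept their direction and call under all 19 alternatives. The fold changes were the same without the filter, with protein-coding genes only, against a fold change of 1.2 and with robust eBayes. They were also the same with the replicate block and nearly so with median-ratio scaling. In all of these the direction could not change. Over all members and alternatives, 593 of 722 values kept their direction and call. With the direction kept, 60 lost the call and 28 gained one. The other 41 changed sign, in 14 members, and some of these also gained or lost a call. The limits are 3 libraries per group from 1 hairpin and reads without a stated strand setting. The scaling of the deposited FPKM is not stated, but the values gave equal median-ratio size factors (1.008) in all 6 libraries. Several calls of members below 0.5 on the log2 scale rest on the scaling chosen. A call was lost under at least 1 alternative in 20 members. For SAR1A, SEC24A, SEC24D and KDELR3 it was lost only against a fold change of 1.2. The cause of the differences between settings was not tested.

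No pairing by replicate number was seen, the deviations of same-numbered libraries correlating at -0.02, -0.05 and -0.15. With the replicate number as a block 8 members were higher and 17 lower, and with the block and GC correction 7 were higher and 21 lower. The block alone changed the member calls of COPA and ARF1.

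Members higher and lower numbered 12 and 12 in TPM, 20 and 7 after quantile normalization, 17 and 7 with read totals, 2 and 6 against a fold change of 1.2, and 8 to 9 and 16 to 20 when libraries were left out. Members past -1 numbered 1 to 2 when libraries were left out. The wider list had 30 higher and 15 lower after quantile normalization, 32 and 16 with read totals, and 10 higher and 11 lower against a fold change of 1.2.

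Log2 fold changes that changed sign were, in TPM, SEC24C 0.037, COPG1 0.12, COPZ1 0.10, TMED9 0.044 and CREB3 0.066. After quantile normalization they were SEC23B 0.12, SEC24C 0.14, COPA 0.13, COPG1 0.29, COPZ1 0.26, ARF1 0.17, ARF3 0.049, ARF4 0.044, TMED9 0.23, SURF4 0.058, CREB3 0.21 and HSPA5 0.18. With read totals they were SEC23B 0.020, SEC24C 0.10, COPA 0.042, COPG1 0.19, COPZ1 0.17, ARF1 0.049, TMED9 0.11, ATF6 0.0093, CREB3 0.13 and HSPA5 0.032. With GC correction, alone or with the block, they were SEC24C 0.0090, TFG -0.28, COPB2 -0.26, COPG1 0.088, TMED2 -0.14, TMED9 0.051, LMAN1 -0.21 and CREB3 0.073. Leaving out libraries gave -0.019 to 0.019 for COPG1, -0.054 to 0.023 for COPZ1 and -0.026 to 0.095 for LMAN1.

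Class ratios in the order COPII coat, organisers, COPI coat, ARF, KDEL receptors, p24, cargo receptors, tethers and all members were 0.944, 0.959, 1.17, 0.899, 0.698, 1.00, 0.887, 1.42 and 0.948 in TPM. They were 1.03, 1.07, 1.30, 1.01, 0.789, 1.13, 1.01, 1.56 and 1.07 after quantile normalization, and 0.990, 1.01, 1.22, 0.942, 0.732, 1.05, 0.930, 1.49 and 0.994 with read totals. With GC correction the COPII coat was at 0.825, organisers 0.836, COPI coat 1.05, ARF 0.856, p24 0.933, cargo receptors 0.856 and tethers 1.201.

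Differences in log2 paralog ratios with GC correction were 0.20 for SAR1A to SAR1B, -0.38 for SEC23A to SEC23B, -0.20 for SEC24A to SEC24B, -0.30 for SEC24C to SEC24D, -0.020 for COPG1 to COPG2, 0.40 for ARF4 to ARF5, 1.28 for KDELR1 to KDELR2 and 0.27 for LMAN1 to LMAN2.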
